A study of Mus musculus with 6 samples.

Results

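Dazl, Ddx4, Dnd1, Nanos3, Tex14 and Tial1 are genes of germ cell identity or survival whose products, apart from the kinase-like protein encoded by Tex14, bind RNA. The annotation gave a 5′ end to 21436 protein-coding genes, of which these are 6. They were chosen by name, with no measured value in the rule, but with earlier results of these data known. Every ATAC-seq peak that overlapped a gene from 10 kb upstream of its 5′ end to 10 kb past its 3′ end was taken in each of the 6 libraries, and the promoter was the stretch within 3 kb of the 5′ end. Coordinates follow mm10 (GRCm38).

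In ATAC-seq the Tn5 transposase cuts accessible DNA and inserts sequencing adapters, and a peak marks a stretch with more insertions than its surroundings. Each library was made from 50000 cells of testes at postnatal day (Pnd) 5, labelled as spermatogonia, which are the germ cells that divide by mitosis. The 3 WT libraries (replicates 1, 2 and 4) came from wild-type mice and the 3 S7KO libraries (replicates 1, 2 and 4) from Sirt7-/- mice, which lack the histone deacetylase SIRT7, and both genotypes shared an inbred background, given in the study's methods, and the labels give no treatment. The Sirt7-/- mice were an existing knockout line, so that cells other than germ cells carry the same genotype. Per the study's methods, spermatogonia were enriched by tissue digestion and by letting somatic cells adhere to a dish, so that other testis cells could remain. The study checked purity by flow cytometry and reported most isolated cells positive for PLZF, a marker of undifferentiated spermatogonia, with wild-type cells shown. The number of animals behind each ATAC-seq library was not stated in the sources used here, while for the study's ChIP-seq on spermatogonia each replicate is described as the cells of a different mouse. The contrast asks whether loss of SIRT7 changed which chromatin was accessible.

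The lists held between 105754 and 133695 peaks per library. No read depth was stated. A background coverage solved from the listed peaks was 2.92 in WT replicate 2 and between 4.72 and 6.03 in the other libraries, so WT replicate 2 was the shallowest. The targeted gene, Sirt7, had a promoter peak in all 6 libraries, ranked at 17.8, 8.07 and 7.75 in S7KO and at 12.4, 12.5 and 5.62 in WT, and a peak list of this kind does not check a deletion. Ranks here and below are percentiles of a peak by −log10 q within its own list, from 0 for the strongest to 100 for the weakest. They compare peaks within a library and are not accessibility between libraries. In such bulk samples fewer cells with an open site and less opening per cell cannot be told apart.

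DAZL and DND1 bind mRNAs of germ cells, NANOS3 recruits the machinery that removes poly(A) tails, and DDX4, the mouse homologue of Vasa, is an RNA helicase of germ granules. These proteins act on mRNAs after transcription, and mice without Dazl, Dnd1 or Nanos3 lose germ cells. TEX14 is needed for the intercellular bridges that join sister germ cells, and TIAL1 (TIAR) is a widely expressed RNA-binding protein of stress granules that primordial germ cells also need. The promoters of many such germline genes are rich in CpG dinucleotides.

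The promoter sequences are shown because, among the genes with a sequence, CpG number separated Nanos3, which had the weakest promoter peak, from the others. They are RefSeq sequences of GRCm38.p6, found for 5 of the 6 genes, from 250 bases before to 50 bases after the annotated start, read 5′ to 3′ on the gene's strand, with every CG in capitals. The Dazl, Ddx4, Nanos3 and Tial1 sequences lie on the minus strand (chr17:50293571-50293870, chr13:112652261-112652560, chr8:84176503-84176802 and chr7:128461624-128461923), and the Tex14 sequence lies on the plus strand (chr11:87404815-87405114). For Tial1, which has 2 annotated starts, the outer is shown.
Dazl: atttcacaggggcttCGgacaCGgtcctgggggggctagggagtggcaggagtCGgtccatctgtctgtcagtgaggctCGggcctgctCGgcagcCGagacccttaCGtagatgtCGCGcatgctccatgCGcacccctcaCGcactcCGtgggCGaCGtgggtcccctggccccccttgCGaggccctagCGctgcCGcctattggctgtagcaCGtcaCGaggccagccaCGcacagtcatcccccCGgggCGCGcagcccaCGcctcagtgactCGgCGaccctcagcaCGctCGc
Ddx4: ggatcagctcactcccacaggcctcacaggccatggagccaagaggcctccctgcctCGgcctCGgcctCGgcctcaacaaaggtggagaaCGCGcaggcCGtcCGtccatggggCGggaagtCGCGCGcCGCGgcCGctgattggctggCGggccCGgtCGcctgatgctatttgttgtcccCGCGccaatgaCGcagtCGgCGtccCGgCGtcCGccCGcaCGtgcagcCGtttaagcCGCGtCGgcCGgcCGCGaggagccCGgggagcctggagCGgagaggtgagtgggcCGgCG
Tex14: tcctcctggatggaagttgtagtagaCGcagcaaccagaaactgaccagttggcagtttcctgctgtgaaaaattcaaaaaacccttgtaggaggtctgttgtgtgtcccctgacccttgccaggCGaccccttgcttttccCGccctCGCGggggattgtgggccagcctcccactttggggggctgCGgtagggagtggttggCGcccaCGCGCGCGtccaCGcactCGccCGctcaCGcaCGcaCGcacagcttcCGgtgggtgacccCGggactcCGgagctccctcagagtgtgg
Tial1: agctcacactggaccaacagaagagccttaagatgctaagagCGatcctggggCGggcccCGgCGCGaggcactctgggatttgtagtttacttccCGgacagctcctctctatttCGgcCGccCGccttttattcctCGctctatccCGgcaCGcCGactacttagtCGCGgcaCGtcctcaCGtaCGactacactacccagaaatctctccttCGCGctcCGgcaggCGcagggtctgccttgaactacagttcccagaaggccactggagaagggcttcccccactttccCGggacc
Nanos3: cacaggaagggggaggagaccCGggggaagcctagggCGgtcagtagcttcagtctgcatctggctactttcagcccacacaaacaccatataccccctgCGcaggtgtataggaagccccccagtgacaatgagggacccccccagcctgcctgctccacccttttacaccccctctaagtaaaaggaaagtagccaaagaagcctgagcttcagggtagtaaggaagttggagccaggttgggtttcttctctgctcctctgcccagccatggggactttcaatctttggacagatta

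The Ddx4 sequence held 38 CpG, the Dazl sequence 28, the Tial1 sequence 23 and the Tex14 sequence 20, whereas the Nanos3 sequence held 3. The ratio of observed to expected CpG, which allows for base composition, was 0.978 for Ddx4, 0.888 for Tial1, 0.795 for Dazl, 0.686 for Tex14 and 0.131 for Nanos3. Only 23.3% of the 32851 promoters in the RefSeq table held fewer CpG than Nanos3, against 95.0% for Ddx4. Across the 21262 promoter starts of protein-coding genes, 63.6% lay under a peak in all 6 libraries. The share was 96.6% among starts with at least as many CpG as Tex14 (7379 of 7640). Among starts with no more CpG than Nanos3 it was 6.77% (344 of 5085). All 6 annotated starts of the 5 genes lay under a peak in all 6 libraries, so Nanos3 had a peak at a kind of start that rarely had one. Among Dazl, Ddx4, Tex14 and Tial1, CpG number did not go with a stronger peak. The peak over the 5′ end had a mean rank of 15.1 for Ddx4 and 10.7 for Dazl, against 3.96 for Tex14 and 1.29 for Tial1.

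**Figure D1:**
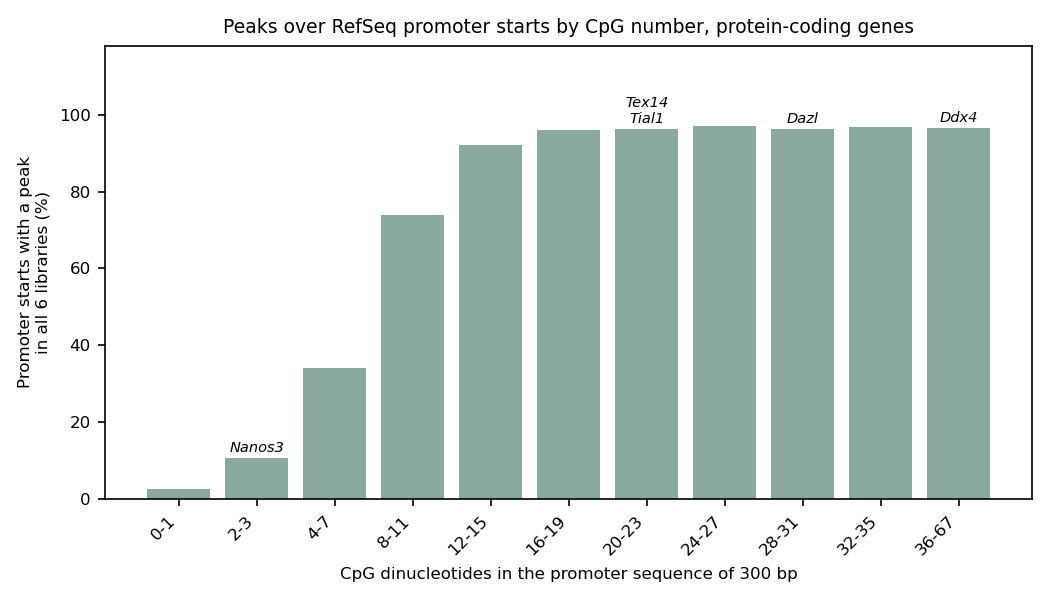
Share of RefSeq promoter starts of protein-coding genes that lay under a peak in all 6 libraries (vertical axis, %), by the number of CpG in the promoter sequence of 300 bases (horizontal axis, bins), with the names of the genes examined above the bin that holds their sequence. The share rises from 2.52% at the lowest CpG numbers to at least 92.1% from 12 CpG on, and Nanos3 is in a bin with 10.6% while Dazl, Ddx4, Tex14 and Tial1 are in bins between 96.2% and 96.6%.

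Short motifs were searched in these sequences on both strands. The E-box CACGTG occurred only in the Ddx4 sequence, at position -29 from the start, and in 7.15% of all promoters of the table. CCAAT occurred in the sequences of Ddx4 (2 matches) and Dazl (1 match, at -47) and in 37.4% of all promoters. The GC box GGGCGG occurred in the sequences of Ddx4 (2 matches), Tial1 (2), Nanos3 (1, at -216) and Tex14 (1, at -109) and in 35.7% of all promoters. The E2F-like TCCCGC occurred once each in the Ddx4 and Tex14 sequences, where it overlapped a GC box, and in 19.98% of all promoters. TGCGCA, the half-site of NRF1, occurred once each in the Dazl sequence at -121 and the Nanos3 sequence at -152, and in 7.76% of all promoters. No sequence held TATAAA, which 13.6% of all promoters did. No motif was shared by all 5 genes.

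All 6 genes had a promoter peak in all 6 libraries, as did 74.0% of protein-coding genes (15863 of 21436). All 6 also had a peak over the base of the 5′ end itself in all 6 libraries, against 59.7% of protein-coding genes (12787). With peaks of −log10 q under 3 left out, 5 of the 6 genes kept a promoter peak in all 6 libraries. Nanos3 did not, since its promoter peaks in WT replicate 2 had −log10 q of 1.73 and 2.98. By rank of the peak over the 5′ end, Tial1 came ahead of Tex14, Tex14 ahead of Dazl, Ddx4 and Dnd1, and these 3 ahead of Nanos3, in each of the 6 libraries. The ranges of Dazl, Ddx4 and Dnd1 overlapped, and the order of Ddx4 and Dnd1 split 3 libraries to 3.

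**Figure D2:**
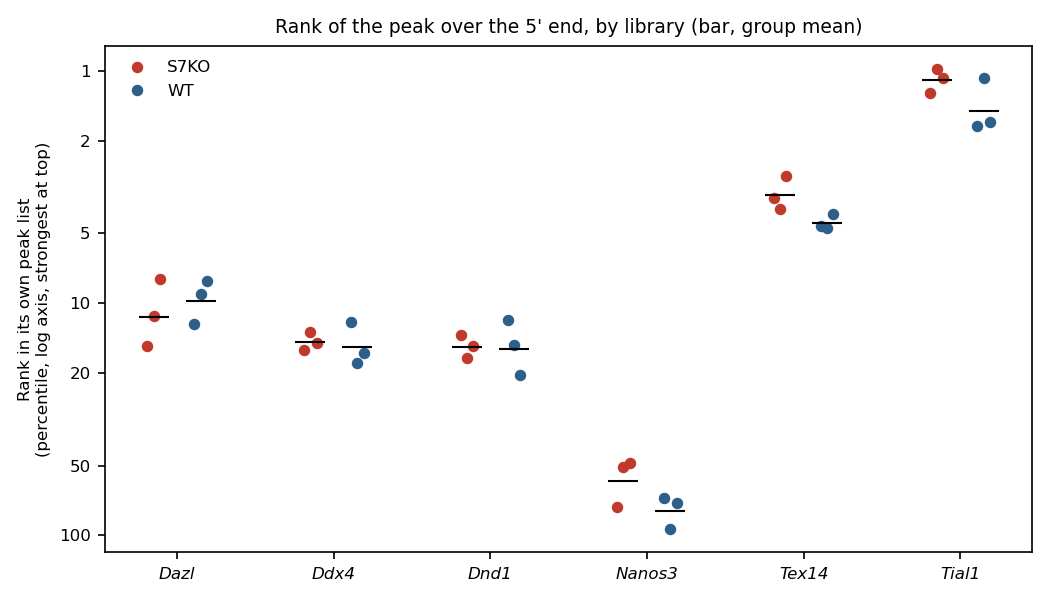
Rank of the peak over the 5′ end of each gene within its own peak list (vertical axis, percentile on a log axis, strongest at the top), with a point for each library (red S7KO, blue WT) and a bar for the group mean. Tial1 lies between 0.974 and 1.72 and Nanos3 between 48.8 and 94.2, and the genotypes overlap for every gene except Tex14.

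Dazl, which encodes the germ cell protein that promotes translation of its target mRNAs, is a minus-strand gene of chromosome 17 at 50279393 to 50293620. The peak over its 5′ end had ranks of 15.3, 11.4 and 7.86 in S7KO replicates 1, 2 and 4. In WT replicates 1, 2 and 4 the ranks were 12.2, 9.14 and 8.03. The peak took 2 forms that crossed the genotypes. In S7KO replicates 1 and 2 and WT replicate 1 it was 2762, 2646 and 2695 bp wide and reached 1671 to 1807 bp upstream. In S7KO replicate 4 and WT replicates 2 and 4 it was 1383, 1155 and 1312 bp wide, and a separate peak of 475 to 508 bp lay further upstream. Both forms thus covered the same upstream stretch, with or without a gap. The ranks followed the form, at 15.3, 11.4 and 12.2 for the wide form and 7.86, 9.14 and 8.03 for the split form. The ranks of the genotypes therefore cannot be read apart from how the peak was split. Outside the promoter, a region of 898 bp (-7247 to -6350 bp from the 5′ end) was called in all 6 libraries at ranks of 53.4 to 69.7. A broad region of 3528 bp downstream of the gene (14522 to 18049 bp) was also called in all 6, at ranks of 75.3 to 89.2 and with fold enrichments, the ratio of pileup to local background, of no more than 2.91. No region lay within the gene body beyond the promoter peak.

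Ddx4 is a minus-strand gene of chromosome 13 at 112598333 to 112652633. The peak over its 5′ end was 1184 to 1321 bp wide and covered the RefSeq start of the sequence shown above, which lies 323 bp inside the outermost annotated end. It ranked at 15.9, 13.3 and 14.8 in S7KO and at 12.1, 18.0 and 16.4 in WT, so the WT libraries bracketed the S7KO libraries. Its fold enrichment was 6.04 to 6.31, higher than that of 75.0% of the 12787 genes with such a peak, while its rank by −log10 q was ahead of only 28.4% of them. The strongest region of the window was not the promoter but a region of 1134 bp upstream (-8713 to -7580 bp), which ranked between 1.42 and 1.76 in all 6 libraries. It lay over an annotated start of Slc38a9, an amino acid transporter gene on the plus strand, 8133 bp from the Ddx4 5′ end. The other 3 regions were weak. A region in the gene body (33637 to 34147 bp) was called in the 3 S7KO libraries and WT replicate 1 at ranks of 73.5 to 94.9, and 2 regions were each called in 1 WT library.

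Tex14 lies on the plus strand of chromosome 11 at 87405013 to 87555823 and is the longest of the genes. The peak over its 5′ end was 1217 to 1425 bp wide, with a fold enrichment of 6.19 to 7.37, higher than that of 84.6% of genes. It ranked at 3.52, 3.91 and 2.82 in S7KO and at 4.66, 4.72 and 4.12 in WT. Every S7KO library thus placed this peak nearer the top of its list than every WT library did. The difference in means was -1.08 percentile points (SD 0.552 in S7KO and 0.333 in WT, n = 3 each), with p = 0.1 in the exact two-sided permutation test, the smallest p that 3 against 3 libraries allow, and an adjusted p of 1 over 15863 genes. Of those genes, 5.22% had all WT ranks weaker than all S7KO ranks and 1.24% the reverse. The groups overlapped when each library was cut to the same number of peaks (exact permutation p = 0.2) and when peaks were ranked by fold enrichment in place of −log10 q (exact permutation p = 0.5). The same peak covers both annotated starts of Rad51c, a recombination repair gene on the opposite strand whose starts lie 59 and 507 bp upstream, so its values belong to both genes. The covered length of the promoter went the other way, with 1217, 1285 and 1226 bp in S7KO and 1425, 1327 and 1280 bp in WT, and these groups overlapped.

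The body of Tex14 held 17 regions, 10 of them called in all 6 libraries. Small nuclear and nucleolar RNA genes lie inside it, and 6 of the 17 regions covered such a gene (Rnu1a1, Gm22068, Rnu3b1, Rnu3b3, Rnu3b4 and Rnu3b2). Each of these 6 was called in all 6 libraries, against 4 of the other 11. The strongest was the region over Rnu3b1 (37478 to 38908 bp from the 5′ end), at ranks of 2.11, 2.12 and 2.80 in S7KO and 2.87, 1.40 and 4.40 in WT. Rnu1a1 encodes a U1 and the Rnu3b genes a U3 RNA. These are families of near-identical copies. The authors kept only uniquely mapped reads, so reads that also matched other copies were left out of these peaks. How much signal this removed was not tested. Gm23137, a further small nuclear RNA gene in the body, had no peak in any library. Of the 4 other regions called in all 6 libraries, a narrow region of 586 bp (114038 to 114623 bp) stood out by a fold enrichment of 5.28 to 8.97, with ranks of 28.8, 13.6 and 9.62 in S7KO and 22.2, 20.3 and 12.1 in WT. A region at the 3′ end (149214 to 150823 bp) overlapped the lncRNA gene Gm34000 and ranked between 10.4 and 27.6. The last 2 were weaker, at ranks of 59.2 to 84.9 and 55.6 to 80.7.

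Tial1 is a minus-strand gene of chromosome 7 at 128439772 to 128461726. Its peak over the 5′ end was the strongest of the 6 genes by rank, at 1.24, 0.974 and 1.07 in S7KO and 1.72, 1.07 and 1.65 in WT, and ahead of 88.2% of genes with such a peak. Its width was 1840 to 1980 bp in all libraries. The fold enrichment was 4.07 to 4.74, below that of Tex14 and Ddx4, so the order by fold differed from the order by rank. The peak covered both annotated Tial1 starts and that of the lncRNA gene Gm32816, which begins 6 bp from the Tial1 5′ end on the other strand. A narrow region upstream (-7359 to -7026 bp) was called in all 6 libraries at ranks of 32.7 to 70.7. A broad weak region past the 3′ end (22327 to 26446 bp) was called in all 6, in pieces of 261 to 4059 bp and at best ranks of 86.8 to 96.2, and a small region beside it was called in S7KO replicates 2 and 4.

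Nanos3 is a minus-strand gene of chromosome 8 at 84173733 to 84176552. The peak over its 5′ end was 388, 313 and 557 bp wide in S7KO and 566, 233 and 390 bp wide in WT. It was narrower, by its mean over the libraries, than all but 0.196% of the 12787 genes with such a peak, whose median width was 1446 bp. Its fold enrichment of 2.30 to 2.85 was higher than that of only 1.88% of them. It ranked at 75.6, 50.7 and 48.8 in S7KO and at 68.7, 94.2 and 72.5 in WT. The weakest value came from WT replicate 2, the shallowest library, and the groups overlapped. A peak further out (-4567 to -2677 bp), the edge of which reaches into the promoter, ranked ahead of it in every library, at 40.5, 38.3 and 44.7 in S7KO and 48.4, 75.3 and 33.3 in WT. The strongest region of the window was further upstream still (-11191 to -9826 bp), at ranks of 24.1, 17.5 and 19.95 in S7KO and 19.02, 26.9 and 18.1 in WT. Together with a region at -7909 to -7289 bp, Nanos3 thus had 3 upstream regions called in all 6 libraries. The miRNA genes Mir181c and Mir181d, 2409 and 2235 bp upstream on the same strand, lay between the promoter peak and the first of these, and no library had a peak over their start.

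Dnd1, whose product binds mRNAs with NANOS proteins and is mutated in the Ter strain prone to testicular teratoma, is a minus-strand gene of chromosome 18 at 36763671 to 36766214. The peak over its 5′ end was 1662, 1694 and 2345 bp wide in S7KO and 1602, 1632 and 1664 bp wide in WT. S7KO replicate 4 stood apart from the other 5 libraries, which lay between 1602 and 1694 bp. It ranked at 13.7, 17.3 and 15.3 in S7KO and at 11.8, 15.1 and 20.4 in WT. The merged region reached over the neighbouring Hars gene. The other region of the window (5449 to 6875 bp, downstream) covered the 5′ end of Wdr55 and ranked between 6.64 and 9.41, ahead of the Dnd1 peak in all 6 libraries.

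**Figure D3:**
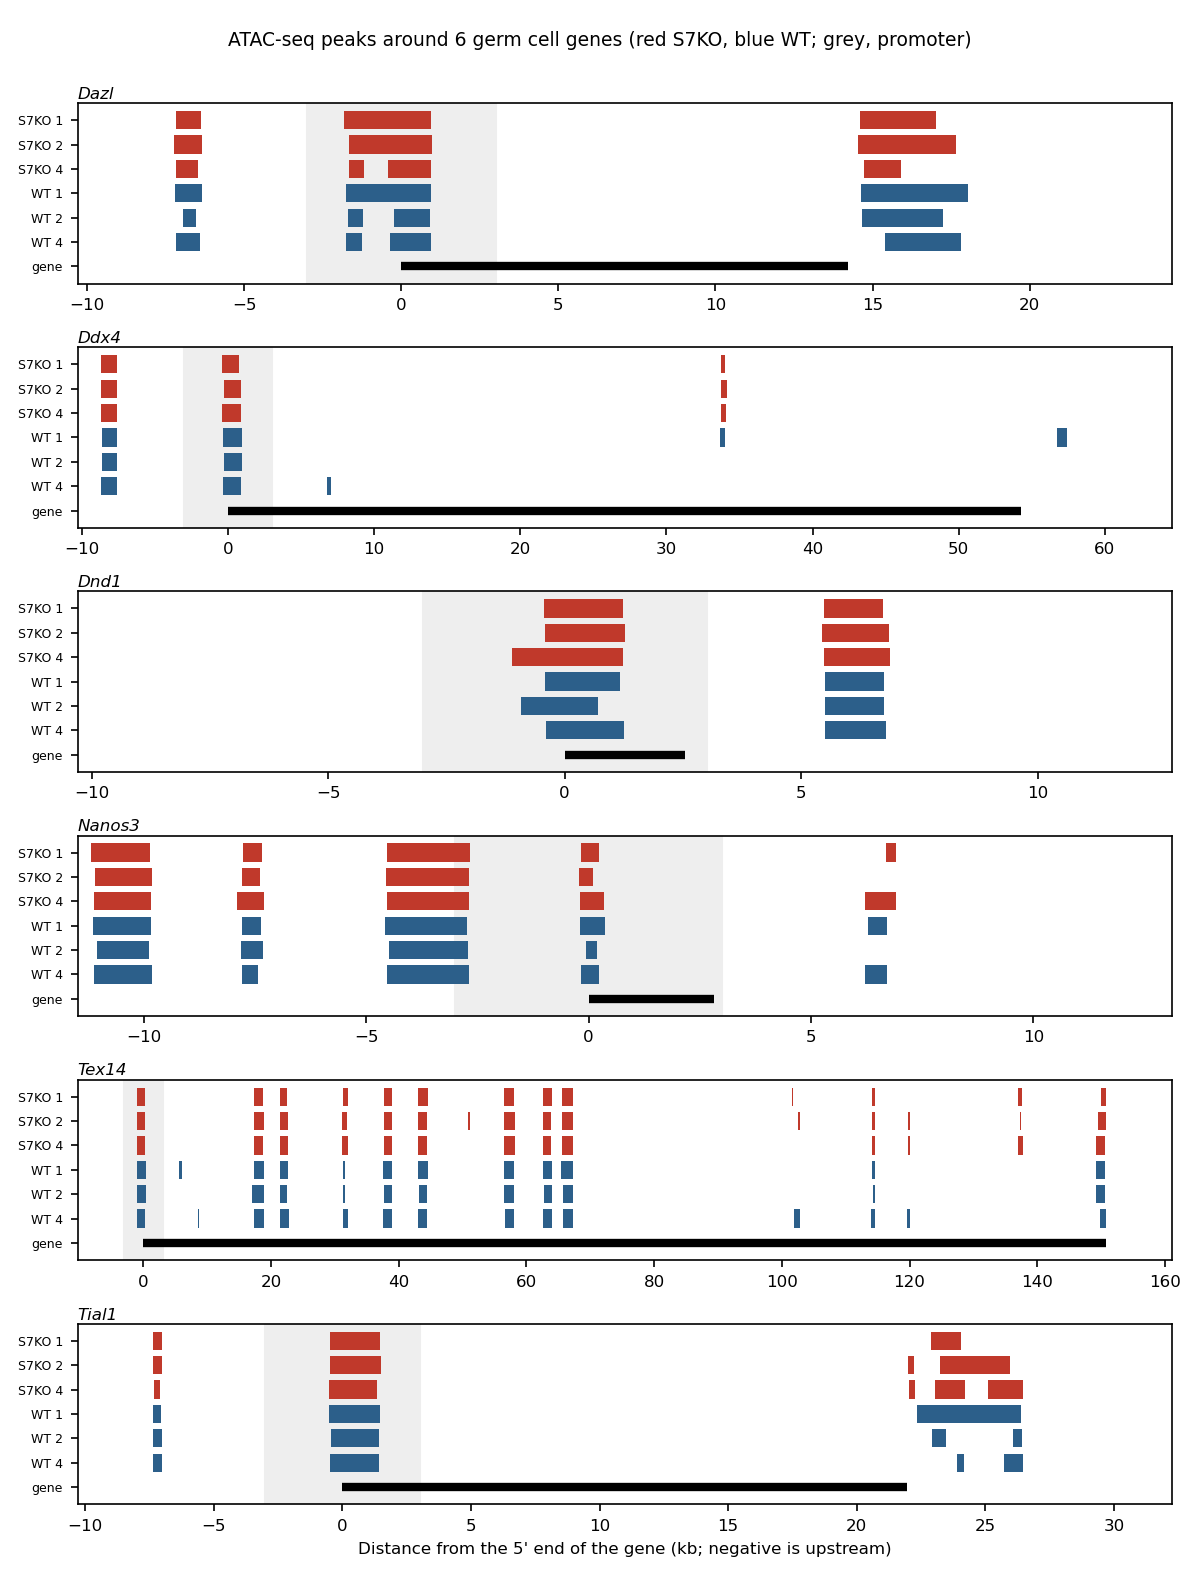
Peaks of each library (rows, red S7KO, blue WT) around the 6 genes, by distance from the 5′ end in kb (horizontal axis, negative upstream), with the gene as a black bar and the promoter in grey. Each gene has a promoter peak in every row, the Dazl peak is split in S7KO 4, WT 2 and WT 4, and Tex14 has a row of regions along its body.

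Over the 6 windows, 29, 31 and 32 peaks were listed in S7KO replicates 1, 2 and 4 and 29, 27 and 32 in WT replicates 1, 2 and 4. Merged where they overlapped or touched, they made 37 regions. All 6 libraries had 25 of these (67.6%), against 57.1% of the 158725 regions genome-wide. The 7 promoter regions were all among the 25. The 12 others were narrower (median 475 bp against 1431 bp) and weaker (median best rank 89.3 against 11.8). Of the 12, 6 were called in 1 library, which is 16.2% of the 37 regions, against 13.6% of regions genome-wide. WT replicate 2, the shallowest library, had exactly the 25 regions that all libraries shared, while the others had 29 to 31. A single region was called in all 3 S7KO and no WT library, and none in all 3 WT and no S7KO library. Genome-wide, 0.416% of regions had the first pattern and 0.0743% the second. This imbalance depended on the setting. The patterns had 310 and 267 regions with equal numbers of peaks, and 929 and 796 without WT replicate 2. They had 383 and 64 with −log10 q of at least 3, 1713 and 498 without WT replicate 1, and 2861 and 254 without WT replicate 4. The cause of the imbalance was not tested. The single region of the windows was in the body of Tex14, at 136944 to 137763 bp from the 5′ end (chr11:87541957-87542776), with ranks of 93.3, 93.2 and 89.5, near the weak end of each list. It no longer had this pattern when peaks with −log10 q under 3 were left out or when each library was cut to the same number of peaks.

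The length of the promoter covered by peaks was compared between genotypes over libraries. Dazl had 2762, 2646 and 1868 bp in S7KO and 2695, 1630 and 1820 bp in WT, a difference of 377 bp beside SDs of 486 and 568 bp (n = 3 each, exact permutation p = 0.4). Single libraries moved this difference, to 168 bp without WT replicate 2, 209 bp without S7KO replicate 1, 656 bp without S7KO replicate 4 and 700.3 bp without WT replicate 1. For Ddx4 the S7KO mean was 1235 ± 74.9 bp and the WT mean 1257 ± 25.1 bp (SD, n = 3). Dnd1 had 1900 ± 385 bp and 1633 ± 31.0 bp, and the difference of 268 bp fell to 45.3 bp without S7KO replicate 4. Nanos3 had the least, 735 ± 122 bp and 686 ± 152 bp, and its mean over the libraries was above that of only 5.57% of genes. Tex14 had 1243 ± 36.9 bp and 1344 ± 74.0 bp. Tial1 had 1918 ± 71.4 bp and 1907 ± 42.6 bp. The groups overlapped for all 6 genes, whereas 7.06% of the 15863 genes with a promoter peak in every library had all S7KO libraries above all WT libraries and 1.54% the reverse. The exact permutation p of the 6 genes was between 0.2 and 0.8, with an adjusted p of 1 for each. Their median difference was 29.7 bp, beside 27.3 bp over all genes tested.

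**Figure D4:**
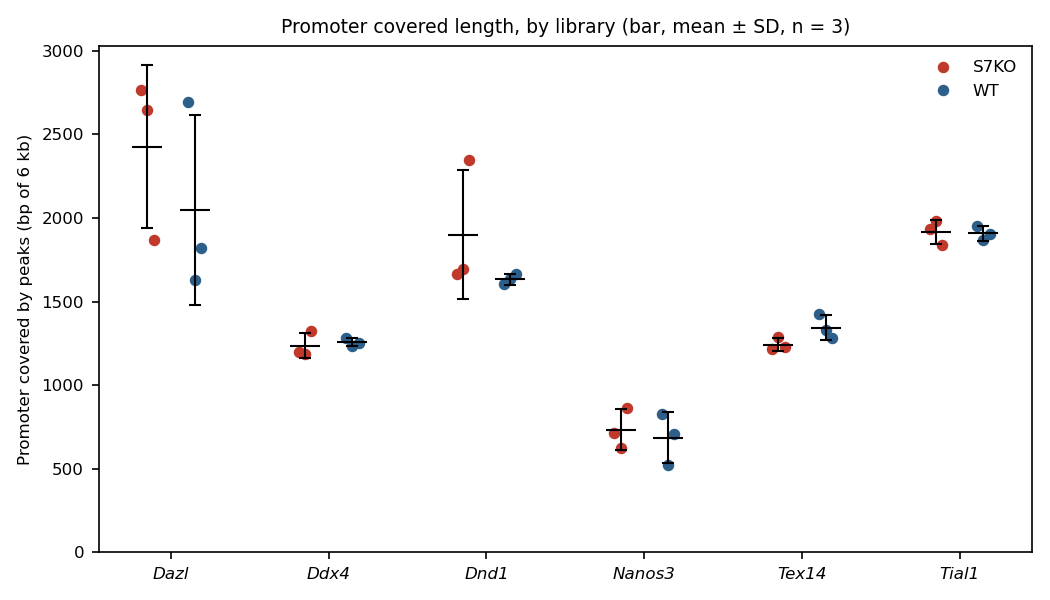
Length of the promoter covered by peaks (vertical axis, bp of the 6 kb around the 5′ end), with a point for each library (red S7KO, blue WT) and bars for the mean ± SD of 3 libraries. The genotypes overlap for all 6 genes, Nanos3 is lowest at 525 to 866 bp and Dazl varies most, from 1630 to 2762 bp.

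The rank of the strongest promoter peak overlapped between genotypes for 5 of the 6 genes, with Tex14 the exception given above. For Nanos3 this was the outer peak (-4567 to -2677 bp), not the peak over the 5′ end. The median difference over the 6 genes, S7KO minus WT, was -0.600 percentile points, beside -0.286 over all genes. The length covered over the whole window also overlapped between genotypes for all 6 genes, whereas 7.48% of 17849 genes had all S7KO libraries above all WT libraries and 0.599% the reverse. Tex14 had the most, with S7KO at 14698 ± 720 bp and WT at 14460 ± 1000 bp (SD, n = 3 each). For Dnd1 it was 3250 ± 426 bp against 2908 ± 50.5 bp (n = 3 each, exact permutation p = 0.2). This difference of 342 bp was 103 bp without S7KO replicate 4 and 512.5 bp without S7KO replicate 1. The smallest adjusted p over all genes was 1 for both promoter measures and 0.9999 for the window, so no gene passed. With 3 libraries a group these tests could not reach 0.05, and they do not show that the genotypes were alike.

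Among the closest relatives of the 6 genes, 5 of 6 had a promoter peak in all 6 libraries, beside 74.0% of protein-coding genes. Boll, the relative of Dazl, had 1825 bp of its promoter covered on average. Ddx3x, a widely expressed relative of Ddx4, had 2196 bp. Nanos1 had 1802 bp, and Tia1, the relative of Tial1, had 1470 bp at a mean rank of 1.75, beside 1.29 for Tial1. Nanos2, the NANOS of male germ cells, had 321 bp and no peak over the base of its 5′ end, so both germ cell NANOS genes had less covered than Nanos1. By rank the Nanos2 promoter peak was nonetheless strong, at a mean of 9.35, against 46.7 for the strongest Nanos3 promoter peak. A1cf, a relative of Dnd1 that acts in mRNA editing in liver and intestine, had no promoter peak in any library.

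Of 23 other genes for RNA-binding and RNA-regulatory proteins of germ cells, among them Nanos2 and Boll, 22 had a promoter peak in all 6 libraries. In 17 a peak lay over the 5′ end itself. The shares of all protein-coding genes were 74.0% and 59.7%. Piwil2, a piRNA-binding Argonaute, was the exception, with a weak peak in the deepest libraries only, S7KO replicate 4 and WT replicate 4. The covered promoter length of these genes ranged from 90.5 to 3350 bp with a median of 1308 bp. In 2 of the 23, the S7KO libraries were all above the WT libraries, and in none the reverse. Lin28a, a regulator of let-7 miRNA processing, had 3799, 3726 and 3206 bp in S7KO and 3054, 2860 and 3075 bp in WT. Mael, of the piRNA pathway, had 1215, 1123 and 1120 bp and 1106, 1109 and 1092 bp. The share of genes with this pattern was the 7.06% given above.

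By promoter ranks over the 6 libraries, the protein-coding genes nearest to each of the 6 were Vat1 for Dazl (2.10 percentile points apart), Msx3 for Ddx4 (2.12), Sstr5 for Dnd1 (2.53), Esx1 for Nanos3 (10.9) and Senp2 for Tial1 (0.308). For Tex14 it was Rad51c, at 0, because they share the peak.

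The labelled cell type was set beside markers. Since 74.0% of protein-coding genes had a promoter peak in all 6 libraries, such a peak separates cell types little. All 8 spermatogonia markers, from Zbtb16 (PLZF) to Kit, had a promoter peak in all 6 libraries, with 16361 to 18222 bp covered in sum in S7KO and 16557 to 18339 bp in WT. Promoter peaks were also found in all 6 libraries at 5 of 6 Sertoli cell markers, 4 of 5 Leydig cell markers and 4 of 4 peritubular myoid cell markers. Of the Sertoli cell markers Rhox5 had none, and of the Leydig cell markers Hsd3b1 had a peak in WT replicate 4 alone. The summed covered lengths were 9936 to 11172 bp in S7KO and 10464 to 11876 bp in WT for Sertoli cell markers, 3723 to 4284 bp and 3762 to 4979 bp for Leydig cell markers, and 8326 to 9101 bp and 7791 to 8717 bp for peritubular myoid cell markers. Of 4 endothelial and blood cell markers, Cdh5 had a promoter peak in all 6 libraries, Pecam1 had a weak one in S7KO replicate 4 and WT replicates 1 and 4, and Ptprc and Adgre1 had none. Of 4 spermatid genes, Tnp1 had a promoter peak in all 6, and Prm1, Prm2 and Acrv1 had none. The part of other testis cells in the peaks of the 6 genes was not tested.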

How the data were processed

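ATAC-seq of 3 S7KO and 3 WT libraries was analysed from 1 deposited peak list per library. Per the study's methods and the submitters' processing notes, the authors checked reads with FastQC 0.12.1, trimmed them with Trim Galore 0.6.6, aligned them to mm10 with Bowtie2 2.4.4.1, kept uniquely mapped reads of mapping quality 30 or more with SAMtools 1.19.2, removed duplicates and mitochondrial reads, corrected positions for the Tn5 offset, retained fragments of 150 to 1000 bp and called broad peaks with MACS2 2.2.5 at a cutoff of 0.1. The study's text also speaks of nucleosome-free fragments, and which fragments entered the calls was not settled. The deposited lists give for each peak the display score, the fold enrichment (the ratio of the pileup to the local background) and a −log10 p-value and −log10 q-value, all deposited as the authors' caller wrote them. The score was not used, and the fold and −log10 q only within a list.

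Gene ends came from the RefSeq table of GRCm38.p6, and strands from the RefSeq promoter table of the same build (17491 genes) or from the GENCODE gene of the same symbol (3945 genes), so that 98.0% of 21883 protein-coding genes had a 5′ end. Exons and introns were not used here. Regions are peaks of the 6 libraries merged on overlap or contact, and a region was assigned to a library with at least 1 bp of peak in it. Covered lengths and ranks were compared per gene by exact permutation, two-sided, of the 20 assignments of libraries, with Benjamini-Hochberg adjustment over all genes with a value in every library, in Python 3.11.15 with numpy 2.4.6, pandas 2.3.3 and scipy 1.17.1, and the code was tested on simulated data. Relative depth was the background coverage solved from the fold enrichment and p-value of peaks under 300 bp.

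The genes and the lists of relatives, germ cell genes and markers were chosen with earlier results of these data known. Named are the 6 genes, all relatives, exceptions in the germ cell list, genes whose 5′ end lies in a window and, per gene, the protein-coding gene with the smallest Euclidean distance in promoter ranks. Lin28a and Mael were named after their values were seen. The methods state 3 independent biological replicates. Titles number them 1, 2 and 4 and a second label 2, 3 and 4. Same-numbered libraries of the genotypes correlated in their deviations at 0.106, -0.00239 and 0.142. Their background coverage in S7KO and WT was 4.72 and 4.74 for replicate 1, 5.15 and 2.92 for replicate 2, and 6.03 and 6.00 for replicate 4. Whether same-numbered libraries shared a preparation cannot be told from these values, and the numbers are used here as names.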

Additional observations from a re-analysis of the deposited data

How the results depend on the processing

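Of 198 alternatives tried on the covered lengths and ranks of the 6 genes, 156 kept the direction of the S7KO minus WT difference and 42 reversed it, and none gave an exact p under 0.1, the smallest possible. A promoter peak in every library was kept by all 6 genes under each alternative except −log10 q of at least 3, which left 5, without Nanos3. The regions called in every library numbered 19 to 26. The region called only in S7KO numbered 0 when at least 50% of a region had to be covered, with −log10 q of at least 3 and with equal numbers of peaks, and 1 to 2 when a library was left out. Differences in promoter covered length reversed to -6.49 bp for Nanos3 and -166 bp for Tial1 when scaled to equal total covered length, and to -40.5 bp for Tial1 with replicates 1 and 4 only, an alternative chosen after seeing the data. Rank differences reversed to 6.12 percentile points for Dnd1 by fold enrichment, to 0.169 for Ddx4 and 0.523 for Dnd1 with equal numbers of peaks, and to 1.13 for Ddx4 and 1.73 for Nanos3 with replicates 1 and 4 only. Differences in window covered length reversed without a flank (19.3 bp for Dazl, 65.3 for Ddx4, -29 for Nanos3), with −log10 q of at least 3 (895 bp for Dazl, -290 for Tex14, -10 for Tial1), with equal numbers of peaks (200.3 bp for Dazl, -512 for Tex14, -319 for Tial1), when scaled (-147 bp for Nanos3, -1053 for Tex14, -86.1 for Tial1) and with replicates 1 and 4 only (-373 bp for Tex14, -660.5 for Tial1). The cause was not tested. With each library left out in turn, promoter covered length differed by 168 to 700.3 bp for Dazl, -65 to 3.5 for Ddx4, 45.3 to 387 for Dnd1, -133 to -60.8 for Tex14, -32.3 to 118.2 for Nanos3 and -20 to 50 for Tial1. Ranks of the strongest promoter peak differed by -0.191 to 3.53 points for Dazl, -2.53 to 0.440 for Ddx4 and -2.32 to 1.96 for Dnd1. For Nanos3, by its outer peak, they differed by -20.7 to 0.283 points. For Tex14 they differed by -1.33 to -0.787 and for Tial1 by -0.593 to -0.266. Window covered length differed by -665 to 800.2 bp for Dazl, -328 to 224 for Ddx4, 103 to 512.5 for Dnd1, -207 to 354 for Nanos3, -306 to 677 for Tex14 and -270.2 to 1326 for Tial1. With a replicate block the differences were unchanged by construction (377 bp of promoter covered length for Dazl), and the exact p was 0.25 or more, the smallest that 3 pairs allow. A peak over the base of the 5′ end, also added after seeing the data, was called for all 6 genes. The shallowest library, WT replicate 2, had no region beyond those called in all 6 libraries, and the part of depth in this was not tested.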
